A study of Mus musculus with 13 samples.

Results

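The comparison described here set plasma cells of the bone marrow from Vκ*MYC mice against the same cells from wild-type mice, through 6 of the 13 RNA libraries of the series. V was 3 libraries from mice that carried V{kappa}*MYC, a transgene that turns on human MYC in B cells of the germinal centre, together with IgG1-Cre, a Cre recombinase expressed from the IgG1 locus. WT was 3 libraries from wild-type mice. Both groups were on a C57/BL6 background, and every library was made from 50000 cells sorted as CD138+, B220- and CD45.2+. Age and sex are not given in the labels, and neither is whether the V mice had tumours. The other 7 libraries were plasma cells of transplant recipients, in 4 groups (VQ D1, D4 and D5, and tVk12653). They enter only as levels placed beside V and WT and in a fit of all 13 libraries. Of 22997 gene symbols in the count table, 10510 had enough reads to be tested, and 10099 of these are reported. Of the others, 321 lie on X or Y, and 59 and 31 belong to lists of neutrophil and erythroid genes.

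Plasma cells secrete antibody, and their identity rests on the transcription factors Irf4, Prdm1 and Xbp1. MYC drives the growth and division of B cells in the germinal centre, and Prdm1 silences the Myc gene when a B cell becomes a plasma cell. In the Vκ*MYC mouse the transgene is turned on by a stop codon that somatic hypermutation reverts, and old animals develop a slow plasma cell tumour that resembles multiple myeloma.

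The sort markers and plasma cell factors were abundant in all 6 libraries. Sdc1, which encodes CD138, had 921, 949 and 1088 CPM (counts scaled by TMM to a common library size) in V and 978, 666 and 932 in WT. Jchain, the joining chain of secreted antibody, had 34551, 39948 and 53473 CPM in V and 36077, 33043 and 62139 in WT. Irf4 had 1741, 1821 and 1820.2 CPM in V, all above the 1735, 927 and 1356 of WT, with a log2 difference of 0.47 ± 0.17 that did not pass (adjusted p = 0.183). Prdm1 and Xbp1 overlapped between the groups, with log2 differences of -0.22 ± 0.12 and 0.14 ± 0.14. The table holds no immunoglobulin segments.

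Total counts were 2096815 to 3257813 in V and 2575570 to 3640249 in WT, so that a floor of 3 counts equals 0.824 to 1.43 CPM. Some markers of other cells and sex-linked RNA moved with the groups. Xist, transcribed from the inactive X chromosome, had 2608, 1449 and 1823 CPM in V and 1442, 2.54 and 3.84 in WT, and Ddx3y, on Y, was at 0 in every V library and had 46.6, 127 and 136 CPM in WT. WT replicate 1 thus held RNA of both Xist and Y genes. The sex of the cells and the genotype cannot be told apart in this comparison. WT replicate 2 stood apart by its RNA of other blood cells: the 52 erythroid genes summed to 486, 650 and 705 CPM in V and 829, 3121 and 1276 in WT. The 30 monocyte genes summed to 279, 316 and 357 CPM in V and 447, 1306 and 517 in WT. In these bulk samples, fewer cells of a type and less RNA per cell cannot be told apart.

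How many genes pass depends on whether the replicate number counts as a pair. With the 6 libraries and no block, edgeR's quasi-likelihood test called 1 gene higher in V, Myc (0.00951% of all tested and 0.0099% of those reported), and 1 lower, the Y-linked Uty (0.00951% of all tested, and 0% of those reported were lower). At an unadjusted p under 0.05 there were 1337 genes (12.7%), and DESeq2 without a block called 90 higher and 201 lower. V and WT libraries of the same number deviated together, and with that number as a block 138 genes were called higher (1.31%) and 341 lower (3.24%). Of the reported genes these were 133 higher (1.32%) and 277 lower (2.74%). The counts of listed genes that passed, given below, stand beside these shares of 1.31% and 3.24% over all genes tested. The lists were chosen with earlier results of these data known, so those counts describe the lists and are no separate support. Below, "rose" and "fell" mean an adjusted p under 0.05 with this block, and every fold change and p is from that fit unless said otherwise.

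All 133 reported genes that rose were higher in each of the 3 pairs. In 113 of them the V libraries lay above all WT libraries, a pattern that 9.9% of all reported genes showed. Their median log2 difference was 0.74, and 32 rose at least 2-fold. The genes that fell did so by more: the median of the 277 was -1.30, and 193 of them fell at least 2-fold. The V libraries lay below all WT libraries in 201 of the 277, against 8.7% of all reported genes. The calls came from these same libraries, so both separations follow in part from the calling and are no separate support. WT replicate 2 was the highest WT library in 84.12% of the genes that fell, against 37.19% of all reported genes, and WT replicate 1 in 60.15% of those that rose, against 32.17%. Without pair 2, 37 genes were called higher (0.36%) and 49 lower (0.477%), and they included 34 of the 133 and 39 of the 277. The medians of the 133 and the 277 there were 0.65 and -1.06. All of them moved the same way in each of the 3 pairs, so that their signs could hardly change there. Without pair 1, 98 of the 133 and 237 of the 277 passed, and without pair 3, 79 and 228. Ly6k, Tnfaip3, Bcl11a, Egr2 and Tars, described below, passed without pair 2, but Ly6k, Tnfaip3 and Bcl11a did not pass without pair 1, and Ly6k, Egr2, Tars and Tnfaip3 did not without pair 3. A fit of all 13 libraries with the block called fewer reported genes, 43 higher (0.349%) and 38 lower (0.309%), which included 41 of the 133 and 37 of the 277.

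**Figure D1:**
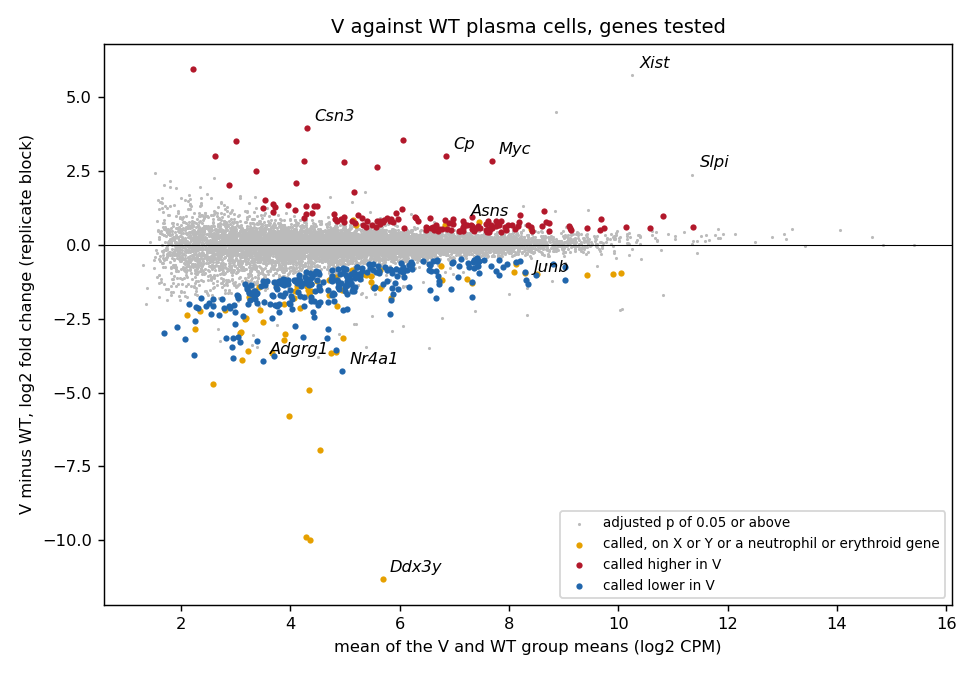
Each point is a gene tested; the horizontal axis is the mean of the V and WT levels in log2 CPM and the vertical axis the log2 fold change of V over WT with the replicate number as a block. Red and blue points are the 133 and 277 reported genes called higher and lower in V, orange points are called genes on X or Y or of neutrophils or erythroid cells, and grey points did not pass; the genes that fell reach larger differences than most that rose.

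Myc rose in V. Mouse Myc (GRCm38.p6 chromosome 15, 61985341 to 61990361) had 305, 417 and 353 CPM in V and 50.1, 71.2 and 33.7 in WT, so that the lowest V library stood well above the highest WT library. Its log2 difference was 2.81 ± 0.26 without the block (adjusted p = 0.0369) and 2.84 ± 0.17 with it (adjusted p = 2.26e-05). The transgene is human MYC, and whether the mouse gene's count includes its reads is not known. The antagonist Mxd1, which competes with MYC for the partner protein Max, fell by 0.71 on the log2 scale (adjusted p = 0.02805), but not without pair 2 (adjusted p = 0.157). The other 8 tested genes of the MYC network did not pass. Of 40 genes of ribosome biogenesis and nucleotide synthesis, the classical targets of MYC, 0 rose and 0 fell. Their median log2 difference was 0.20 against 0.01 over all genes, and 0.15 without pair 2. Of the 40, 33 had a positive difference, against 5375 of all 10510 genes tested. In 10 of them all V libraries lay above all WT libraries, against 9.9% of reported genes. Ncl, nucleolin, had 917, 1247 and 959.9 CPM in V and 922, 935 and 849 in WT (log2 difference 0.20 ± 0.13), and Ddx21, a nucleolar helicase, had 263, 260.3 and 233 CPM in V and 247, 231 and 237 in WT.

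Part of the genes of amino acid supply rose. Such genes are known to be switched on by the transcription factor ATF4 when amino acids run short or the endoplasmic reticulum is stressed. Of 30 tested genes of the ATF4 and amino acid response, 7 rose and 0 fell, with a median log2 difference of 0.48. Over all genes tested, 1.31% rose. Of 23 cytosolic aminoacyl-tRNA synthetases, the enzymes that load tRNAs with amino acids, 6 rose and 0 fell, with a median of 0.40. Asns, asparagine synthetase, had 185, 161 and 189 CPM in V and 136, 82.8 and 110.5 in WT, a log2 difference of 0.72 ± 0.13 (adjusted p = 0.00861). Slc1a4, a transporter of alanine, serine and cysteine, had 30.8, 21.7 and 33.01 CPM in V and 17.8, 8.35 and 14.8 in WT (1.09 ± 0.23, adjusted p = 0.0182). In both genes every V library lay above every WT library, and WT replicate 2 was lowest.

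The mitochondrial enzymes that make one-carbon units from serine rose as well. Shmt2 had 251, 225 and 271 CPM in V and 179, 131 and 159 in WT (0.68 ± 0.11, adjusted p = 0.00675). Mthfd2 had 114, 105 and 147 CPM in V and 76.4, 63.9 and 54.3 in WT (0.92 ± 0.17, adjusted p = 0.0119). The groups did not overlap in either gene. Aldh18a1, which starts proline synthesis, rose by 0.53 on the log2 scale, the stress-induced factor Atf5 by 0.56, and Ddit4, an inhibitor of mTORC1, by 1.31 ± 0.29. A pair of mitochondrial genes outside the list, picked after their values were seen, also rose: Pck2, the mitochondrial PEP carboxykinase, by 0.82 ± 0.11 (adjusted p = 0.002203), and Aldh1l2, a folate enzyme, by 0.78 ± 0.19 (adjusted p = 0.0358). Atf4 itself had 517, 552 and 487 CPM in V and 541, 397 and 472 in WT, and its log2 difference of 0.15 ± 0.13 did not pass.

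Among the synthetases, Iars, which loads isoleucine, had 257, 218 and 238 CPM in V and 162, 121 and 152 in WT (0.72 ± 0.11, adjusted p = 0.00445). Gars, which loads glycine, had 239, 267 and 285 CPM in V and 184, 154 and 173 in WT (0.63 ± 0.12, adjusted p = 0.0115). Tars, which loads threonine, had 260.03, 199 and 282 CPM in V and 181, 149 and 162 in WT (0.58 ± 0.12, adjusted p = 0.0161). All 3 separated the groups. Mars, Nars and Aars rose by 0.53, 0.47 and 0.43. Without pair 2, Iars (adjusted p = 0.0282), Tars (0.03698), Shmt2 (0.0473) and Pck2 (0.0115) still passed, and Asns (0.0644), Mthfd2 (0.0512), Slc1a4 (0.0926), Gars (0.0773), Ddit4 (0.264) and Aldh1l2 (0.154) did not. In all, 1 of the 30 genes of the ATF4 list and 2 of the 23 synthetases passed without pair 2, and 0 and 1 in the fit of all 13 libraries.

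The promoters of these genes were searched for the letters TGATGNAA on either strand (TTNCATCA on the other), the core of the CARE element that ATF4 is known to bind with a C/EBP partner. The RefSeq promoter windows run from 250 bases before to 50 after the annotated start. Of the 13 genes of both lists that rose, 11 had a window and 6 of these held a match (54.5%), and of the 40 tested and not called 7 of 31 did (22.6%). Among all 27025 genes with a window, 4.51% held one, and among the tested genes 2.79%. A match is a description of the letters and says nothing about binding in these cells. Windows of 5 of the 6 genes that rose and hold a match are shown, with the match in capitals (GRCm38.p6, read 5′ to 3′ along the gene).
Asns (chr6:7693160-7693459, minus strand): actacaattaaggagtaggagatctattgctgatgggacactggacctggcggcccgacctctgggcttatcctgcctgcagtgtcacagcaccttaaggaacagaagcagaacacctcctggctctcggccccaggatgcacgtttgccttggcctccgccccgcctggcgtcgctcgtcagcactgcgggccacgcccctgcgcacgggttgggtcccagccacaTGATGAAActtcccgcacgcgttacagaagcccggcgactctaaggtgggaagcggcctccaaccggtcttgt
Slc1a4 (chr11:20332664-20332963, minus strand): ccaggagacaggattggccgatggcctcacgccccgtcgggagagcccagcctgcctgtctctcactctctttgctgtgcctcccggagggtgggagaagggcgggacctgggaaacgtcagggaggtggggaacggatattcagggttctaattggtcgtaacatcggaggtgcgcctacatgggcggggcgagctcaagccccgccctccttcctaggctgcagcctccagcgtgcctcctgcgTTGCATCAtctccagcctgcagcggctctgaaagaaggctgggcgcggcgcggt
Iars (chr13:49681880-49682179, plus strand): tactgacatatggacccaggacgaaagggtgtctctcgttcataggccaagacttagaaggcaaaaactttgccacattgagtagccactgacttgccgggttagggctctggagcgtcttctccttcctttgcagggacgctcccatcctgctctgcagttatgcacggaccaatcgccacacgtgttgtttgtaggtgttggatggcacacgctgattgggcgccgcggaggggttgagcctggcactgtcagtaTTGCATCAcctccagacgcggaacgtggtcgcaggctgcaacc
Tars (chr15:11399609-11399908, minus strand): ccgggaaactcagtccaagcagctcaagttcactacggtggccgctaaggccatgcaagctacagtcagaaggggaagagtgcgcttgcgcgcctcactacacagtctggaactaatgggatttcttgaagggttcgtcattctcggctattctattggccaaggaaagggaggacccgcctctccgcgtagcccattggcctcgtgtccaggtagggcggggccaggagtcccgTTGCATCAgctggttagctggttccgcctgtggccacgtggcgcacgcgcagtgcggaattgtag
Aars (chr8:111033592-111033891, plus strand): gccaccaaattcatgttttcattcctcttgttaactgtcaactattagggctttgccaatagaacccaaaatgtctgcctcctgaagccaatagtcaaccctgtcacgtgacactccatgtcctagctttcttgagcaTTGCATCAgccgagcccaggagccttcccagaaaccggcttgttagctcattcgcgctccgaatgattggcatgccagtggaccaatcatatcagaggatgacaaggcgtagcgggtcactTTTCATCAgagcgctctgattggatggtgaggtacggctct
Counted from the start, the match begins at base -23 in Asns, at -4 in Slc1a4, at 7 in Iars and at -15 in Tars, and Aars holds 2 matches, at -112 and 9. The E-box CACGTG, the letters that MYC with Max is known to bind, lay in 4 of those 11 windows (36.4%) and in 2 of the 31 of genes not called (6.45%), against 12.3% of tested genes. Over the reported genes that rose, 17.8% of 101 windows held the E-box, and 7.73% of 220 for those that fell. No CARE match overlapped an E-box match in the windows printed.

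More ribosomal proteins rose than genes of any other list: 29 of 74 cytosolic ones rose and 0 fell, with a median log2 difference of 0.50. Over all genes tested, 1.31% rose. Rps19 had 167, 221 and 154 CPM in V and 104, 123 and 83.6 in WT (0.80 ± 0.12, adjusted p = 0.00312). Rps20 had 366, 396 and 343 CPM in V and 209, 203 and 231 in WT (0.78 ± 0.12). Rpl32 had 558, 574 and 481 CPM in V and 336, 294 and 321 in WT (0.76 ± 0.12). The groups did not overlap in these 3 genes. Summed over the 74 genes the libraries had 11065, 12747 and 10730.0 CPM in V and 7858, 7705 and 7764 in WT, a ratio of 1.41, 1.65 and 1.38 within pairs. Without pair 2 the median stayed at 0.44, and 4 of the 74 passed, against 17 in the fit of all 13 libraries. Many ribosomal protein genes have processed copies in the genome, and the rule for reads that align to several of them is not stated.

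Elongation factors, which bring tRNAs to the ribosome and move it along, moved with them. Of 41 translation factors 3 rose and 0 fell. Eef1b2 had 514, 588 and 448 CPM in V and 327, 305 and 278 in WT (0.76 ± 0.12, adjusted p = 0.00479). Eef2 had 3225, 3168 and 3140.5 CPM in V and 2242, 1955 and 2058 in WT (0.61 ± 0.13), and Eef1a1 had 1779, 1921 and 1782 CPM in V and 1232, 1133 and 1336 in WT (0.57 ± 0.13). Without pair 2, Eef1b2 passed (adjusted p = 0.0156), and Eef2 (0.0547) and Eef1a1 (0.0893) did not.

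Of 37 ER chaperones and genes of the unfolded protein response, 4 rose and 0 fell, and all 37 had a positive difference (median 0.33). Over all 10510 genes tested, 5375 had a positive difference. Pdia6, a disulfide isomerase, had 997, 1088 and 973 CPM in V and 771, 565 and 737 in WT (0.57 ± 0.14, adjusted p = 0.0425), Creld2, another ER protein induced by stress, had 1071, 858 and 921 CPM in V and 797, 544 and 666 in WT (0.52 ± 0.12), and Ero1lb, an ER oxidase, rose by 0.47 ± 0.12. Mzb1, an ER protein that helps antibody assembly in plasma cells, had 377, 548 and 498 CPM in V and 286, 271 and 349.99 in WT (0.64 ± 0.14, adjusted p = 0.0212). In this list WT replicate 2 was low: the sum of the list was 54953, 54817 and 53151 CPM in V and 48604, 35890.0 and 47216 in WT. Without pair 2 the median was 0.18, and 0 of the 37 passed. Of 48 genes of protein translocation and secretion 0 passed, and 45 had a positive difference (median 0.20, and 0.07 without pair 2). Rpn1 had 1177, 1416 and 1274 CPM in V and 1009, 882 and 1119 in WT. Sec11c had 1196, 1377 and 1208 CPM in V and 1118, 818 and 1153 in WT. Of 56 genes of oxidative phosphorylation 0 passed, and 52 had a positive difference (median 0.25, and 0.16 without pair 2). Among the 56 were the ATP synthase subunits Atp5b (0.24 ± 0.12) and Atp5a1 (0.21 ± 0.12).

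**Figure D2:**
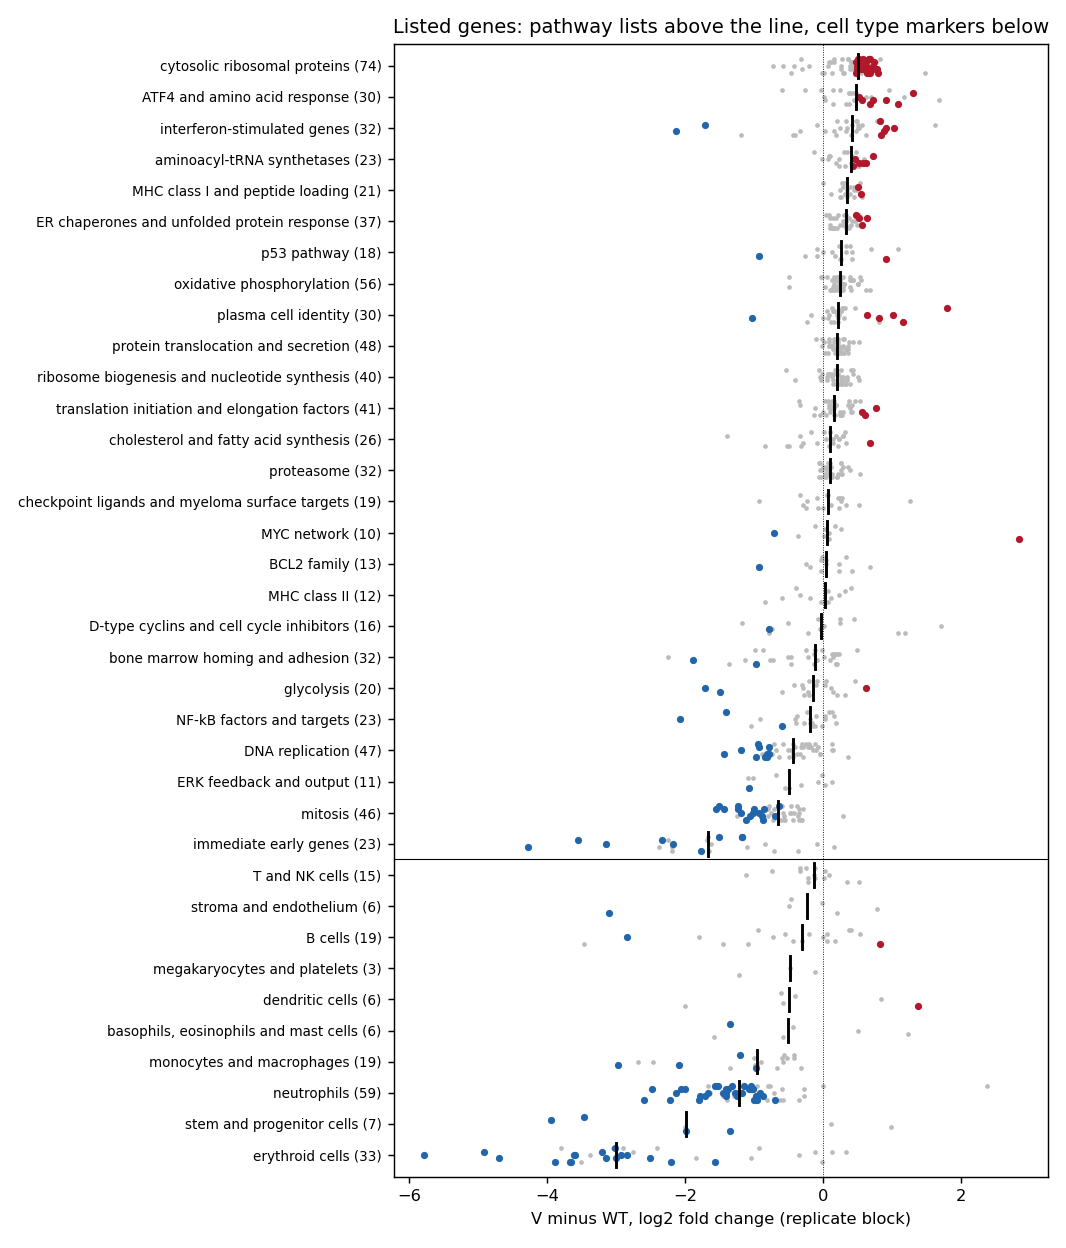
Each row is a gene list with the number of its genes tested in brackets, each point a gene, the horizontal axis the log2 fold change of V over WT with the block, and the black bar the list's median. Red points rose, blue points fell and grey points did not pass; ribosomal proteins (median 0.50) and the ATF4 list (0.48) lie furthest to the right among pathway lists, and immediate early genes (-1.67) furthest to the left.

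Interferon-stimulated genes moved in both directions. Of 32 tested, 5 rose and 2 fell (median 0.42). Irf9, a DNA-binding subunit of the factor that type I interferons activate, had 97.3, 85.3 and 61.6 CPM in V and 42.9, 51.9 and 36.7 in WT (0.88 ± 0.16, adjusted p = 0.00861). Ifi27 had 44.97, 42.8 and 25.8 CPM in V and 20.9, 14.2 and 18.9 in WT (1.04 ± 0.24). Bst2, tetherin, had 54.3, 76.3 and 53.8 CPM in V and 30.9, 30.9 and 41.1 in WT (0.83 ± 0.19). In these 3 genes the V libraries lay above all WT libraries. Igtp also rose (0.84), and Ifit2 (-2.14) and Rsad2 (-1.71) fell. Of the genes named here, Irf9 alone passed without pair 2 (adjusted p = 0.0354).

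Of 21 genes of MHC class I and peptide loading, 2 rose. They were H2-Q6, a class I gene with near-identical neighbours, at 0.55 ± 0.12 (adjusted p = 0.0212), and the proteasome activator subunit Psme1 at 0.50 ± 0.12 (adjusted p = 0.04100). Neither passed without pair 2. None of 12 class II genes passed: Cd74, the invariant chain, had 4400.03, 3299.6 and 3944 CPM in V and 4042, 2846 and 3057 in WT.

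Among 30 genes listed for plasma cell identity 5 rose and 1 fell, and 4 of the 5 encode Ly6 surface proteins on chromosome 15. Ly6k had 72.3, 21.7 and 75.5 CPM in V and 15.4, 15.6 and 13.7 in WT (1.81 ± 0.37, adjusted p = 0.04296). Ly6a, known as Sca-1, had 461, 446 and 282 CPM in V and 227, 159 and 195 in WT (1.01 ± 0.17, adjusted p = 0.00886). Ly6d had 293, 268 and 189.6 CPM in V and 177, 117 and 129.9 in WT (0.82 ± 0.13, adjusted p = 0.00633). Ly6c2 had 1209, 282 and 243 CPM in V and 386, 159 and 123 in WT (1.16 ± 0.16, adjusted p = 0.00348). The groups were apart for Ly6k, Ly6a and Ly6d, and they overlapped for Ly6c2, which replicate 1 held most of in both groups. These 4 also passed without pair 2, and Mzb1, the other of the 5, did not. The Ly6k log2 fold change did not pass without pair 1 (adjusted p = 0.178) or pair 3 (0.0552), and in the fit of all 13 libraries none of the 5 passed. Ly6 genes resemble each other, and Ly6c2 has a near-identical neighbour that can share its reads.

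Cd93, a receptor that long-lived plasma cells need to stay in the marrow, fell. It had 114, 125 and 213 CPM in V and 272, 275 and 348 in WT, with no overlap (-1.02 ± 0.13, adjusted p = 0.00156, and 0.0121 without pair 2). Of 32 homing and adhesion genes 2 fell and 0 rose, and the adhesion molecule Vcam1 was one of them (-0.98 ± 0.24). It did not pass without pair 2 (adjusted p = 0.265). None of 19 checkpoint ligands and myeloma surface targets passed; Slamf7, a target of myeloma antibodies, had 999, 979 and 1138 CPM in V and 932, 691 and 987 in WT.

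Csn3, Esyt3, Mgarp and Cp, on none of the lists, had the largest rises among the 12 genes named for size. The predicted gene Gm26748, which the rule for naming leaves out, also rose, with 16.1, 5.18 and 6.29 CPM in V and 0.343, 0 and 0 in WT. Csn3, the milk protein kappa-casein (chromosome 5, 87925579 to 87932550), had 67.5, 26.9 and 17.9 CPM in V and 2.3997, 1.45 and 2.47 in WT (3.96 ± 0.36, adjusted p = 0.000152). Cp, the copper-carrying ferroxidase ceruloplasmin (chromosome 3, 19956933 to 20009750), had 269.8, 271 and 77.98 CPM in V and 34.3, 21.1 and 16.2 in WT (3.00 ± 0.24, adjusted p = 0.000657). V replicate 3 was the lowest V library in both genes, and above every WT library, as the rule for naming required.

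Esyt3, an extended synaptotagmin that tethers the ER to the plasma membrane, had 21.995, 9.32 and 12.6 CPM in V and 2.74, 0.726 and 0.548 in WT (3.52 ± 0.46). Mgarp, a mitochondrial protein, had 19.6, 5.87 and 7.23 CPM in V and 3.43, 0.726 and 0.274 in WT (3.02 ± 0.52). Gprc5b, an orphan G protein-coupled receptor, had 34.2, 7.25 and 11.005 CPM in V and 7.199, 1.45 and 1.096 in WT (2.52 ± 0.38). In these 3 genes replicate 1 was the highest in V and in WT, and WT levels of replicates 2 and 3 lay near the floor of 3 counts. All 5 of Csn3, Cp, Esyt3, Mgarp and Gprc5b passed without pair 2, with adjusted p of 0.002002, 0.000214, 0.00951, 0.0373 and 0.0119. In the fit of all 13 libraries with the block, Gprc5b did not pass (adjusted p = 0.310), and the others did.

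Smaller rises were seen for Upb1, an enzyme of pyrimidine breakdown and the 1 of 6 dendritic cell genes to pass (1.38 ± 0.31), the histone reader Zcwpw1 (1.34 ± 0.25), the actin nucleator Fmn1 (1.34 ± 0.27) and the actin bundler Fscn1 (1.25 ± 0.32). None of the 4 passed without pair 2. Fmn1 had 31.8, 26.9 and 33.96 CPM in V and 7.199, 10.9 and 19.5 in WT, and Fscn1 had 15.6, 17.95 and 14.5 CPM in V and 6.86, 4.72 and 8.496 in WT.

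A group of genes was strongly higher in V within each pair and yet overlapped between the groups, since replicate 1 was the highest in both. These were picked after their values were seen. Cyp2b10, a cytochrome P450 best known from liver, had 294, 68.4 and 13.2 CPM in V and 17.1, 7.99 and 2.19 in WT (3.55 ± 0.26, adjusted p = 6.00e-05). Dsp, the desmosomal protein desmoplakin, had 163, 49.4 and 27.7 CPM in V and 39.1, 4.36 and 3.29 in WT (2.63 ± 0.26). Ermn, a myelin cytoskeletal protein, had 87.004, 9.32 and 4.72 CPM in V and 11.7, 1.09 and 0.822 in WT (2.86 ± 0.31), and Klra17, a gene of the Ly49 receptor family, had 126, 12.1 and 26.7 CPM in V and 18.9, 4.36 and 1.096 in WT (2.80 ± 0.40). Without the block their adjusted p ranged from 0.333 for Cyp2b10 to 0.447 for Ermn. In the fit of all 13 libraries with the block it ranged from 0.122 for Klra17 to 0.231 for Cyp2b10.

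Immediate early genes, which cells switch on within minutes of a stimulus such as receptor signalling or handling, were the lowest pathway list in V. Of 23 tested 9 fell and 0 rose, with a median log2 difference of -1.67, while 3.24% of all genes tested fell. In 19 of the 23 all V libraries lay below all WT libraries, against 8.7% of all reported genes. Nr4a1, a nuclear receptor that B cells induce on antigen receptor signalling (chromosome 15, 101253902 to 101274795), had 4.89, 3.11 and 0.943 CPM in V and 67.2, 98.04 and 11.2 in WT (-4.27 ± 0.30, adjusted p = 2.26e-05). The zinc finger factor Egr3 had 2.93, 5.18 and 2.52 CPM in V and 111, 34.9 and 15.1 in WT (-3.55 ± 0.45, adjusted p = 0.00656). Its paralogue Egr2 had 2.44, 5.52 and 3.77 CPM in V and 99.4, 19.6 and 22.2 in WT (-3.14 ± 0.59, adjusted p = 0.0465). The groups did not overlap in these 3 genes, as the rule for naming required, and the WT libraries lay further from each other than the V libraries did.

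Junb, an AP-1 subunit, had 189, 217 and 175 CPM in V and 541, 424 and 362 in WT (-1.17 ± 0.13, adjusted p = 0.000657). Ier2 had 73.3, 55.9 and 57.9 CPM in V and 248, 160.5 and 136 in WT (-1.50 ± 0.13, adjusted p = 0.000132). Zfp36, which destabilizes cytokine mRNAs, had 326, 304 and 319.8 CPM in V and 904, 632 and 634 in WT (-1.17 ± 0.13, adjusted p = 0.000657). Dusp1, a MAP kinase phosphatase (-1.76 ± 0.20), the AP-1 subunit Fosl2 (-2.18 ± 0.31) and the nuclear receptor Nr4a3 (-2.34 ± 0.48) fell too. Without pair 2, 7 of the 23 passed, with a median of -1.82, and Junb (0.00197), Ier2 (0.00197), Zfp36 (0.002002), Nr4a1 (0.000921), Egr2 (0.0136) and Egr3 (0.00733) were among them. Fos and Egr1, picked after their values were seen, did not pass with the block: Fos had 304, 431 and 285 CPM in V and 3331, 944 and 1142 in WT (adjusted p = 0.191), and Egr1 had 82.6, 93.6 and 88.7 CPM in V and 1038, 277 and 347 in WT (adjusted p = 0.143). Both separated the groups, and WT replicate 1 was far above the other WT libraries. Summed over the list, V had 3707, 4065 and 3563 CPM and WT 19206, 7426 and 7760. In the fit of all 13 libraries, 1 of the 23 passed.

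The window of Nr4a1 is shown because that gene fell most among the 9 immediate early genes that fell. The letters TGACG or, on the other strand, CGTCA are in capitals. They are the core of the element that CREB is known to bind.
Nr4a1 (chr15:101266596-101266895, plus strand): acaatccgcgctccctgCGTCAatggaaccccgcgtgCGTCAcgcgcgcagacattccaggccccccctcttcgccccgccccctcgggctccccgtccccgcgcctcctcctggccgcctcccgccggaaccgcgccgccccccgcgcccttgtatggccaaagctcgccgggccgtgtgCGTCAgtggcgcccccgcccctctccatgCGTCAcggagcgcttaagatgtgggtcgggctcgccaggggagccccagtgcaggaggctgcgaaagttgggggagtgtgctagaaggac
Such letters lay in 5 of the 7 windows of the listed genes that fell (71.4%) and in 9 of the 13 of those that did not pass (69.2%), against 37.6% of tested genes.

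Neighbouring programmes fell in fewer genes. Of 23 NF-kB factors and targets 3 fell and 0 rose. Nfkbiz, an inducible nuclear IkB protein, had 46.9, 39.4 and 30.2 CPM in V and 135, 111 and 69.6 in WT (-1.41 ± 0.15, adjusted p = 0.000426). Nfkbid had 2.44, 5.18 and 6.92 CPM in V and 16.8, 35.9 and 13.7 in WT (-2.08 ± 0.38), and the deubiquitinase Tnfaip3, known as A20, had 91.4, 114 and 89.3 CPM in V and 179, 138 and 132 in WT (-0.59 ± 0.14). The groups did not overlap in these 3, and Nfkbiz and Tnfaip3 also passed without pair 2 (adjusted p = 0.00363 and 0.0364). Of 11 genes of ERK feedback and output, Dusp6, the phosphatase of ERK, alone fell (-1.07 ± 0.27), and not without pair 2 (adjusted p = 0.366). Cd69, an early activation marker picked after its values were seen, had 104, 82.5 and 89.9 CPM in V and 315, 155 and 213 in WT (-1.25 ± 0.14, adjusted p = 0.000657).

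**Figure D3:**
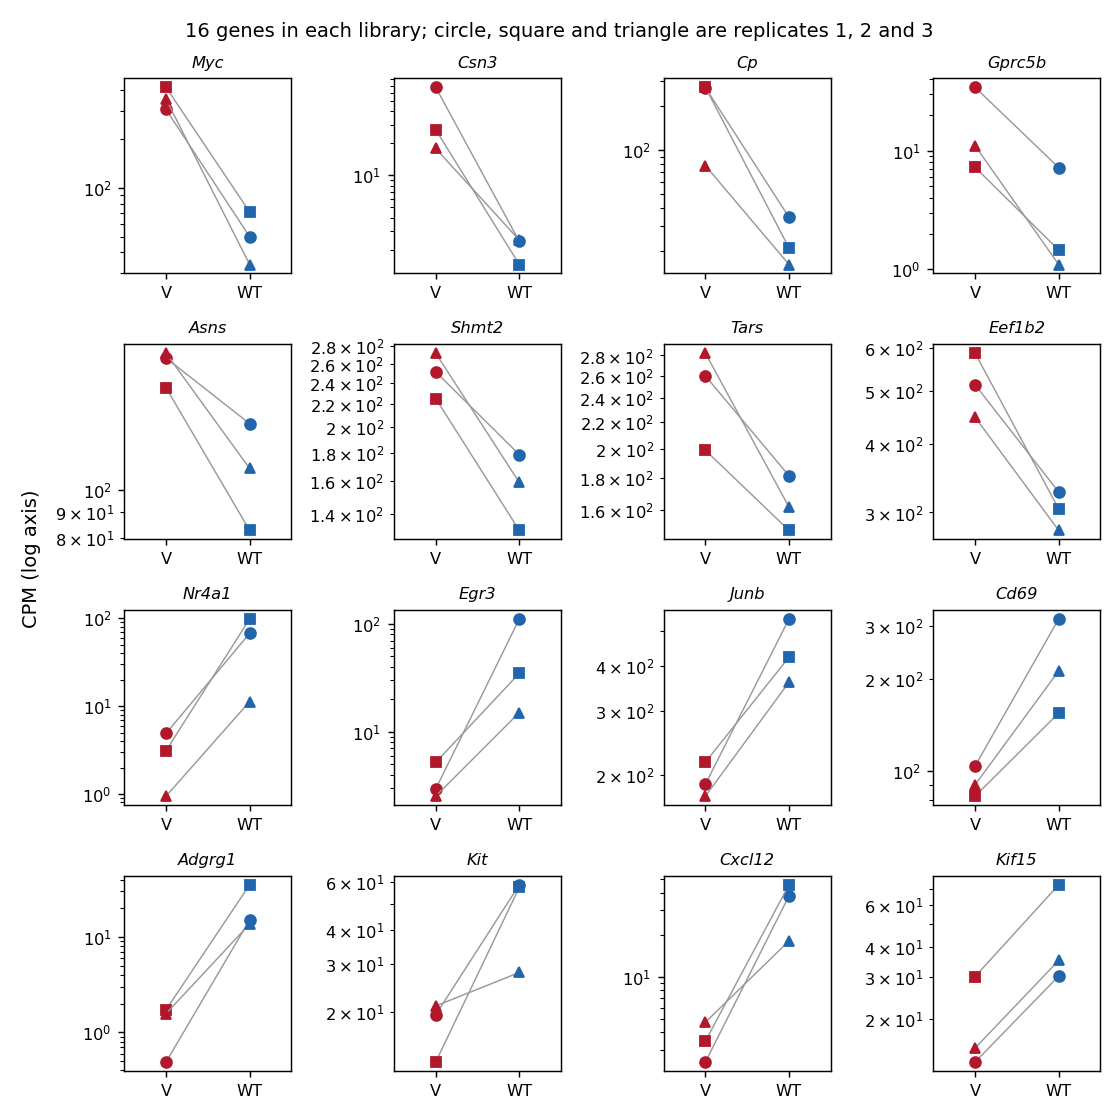
Each panel is a gene, with CPM on a log axis, V libraries in red at the left, WT libraries in blue at the right, and a grey line between libraries of the same replicate number. The lines fall from V to WT in the 8 upper panels (Myc at 305 to 417 CPM in V and 33.7 to 71.2 in WT) and climb in the 8 lower ones (Junb at 175 to 217 CPM in V and 362 to 541 in WT).

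Some genes of stem and progenitor cells fell, and 2 of them, Adgrg1 and Sox4, were among the 12 genes named for the largest falls. Adgrg1, an adhesion receptor of blood stem cells (chromosome 8, 94974756 to 95014208), had 0.489, 1.73 and 1.57 CPM in V and 15.1, 35.2 and 13.7 in WT (-3.94 ± 0.41, adjusted p = 0.000433). The transcription factor Sox4 had 0.489, 0.345 and 2.201 CPM in V and 14.7, 23.2 and 4.93 in WT (-3.46 ± 0.75). The receptor Kit had 19.6, 13.1 and 21.1 CPM in V and 58.6, 57.4 and 27.96 in WT (-1.35 ± 0.30), and the transcription factor Erg had 1.47, 6.56 and 2.83 CPM in V and 14.4, 23.97 and 6.85 in WT (-1.99 ± 0.40). These were the 4 of 7 tested stem and progenitor genes that fell, and Adgrg1 alone passed without pair 2 (adjusted p = 0.0119), and none in the fit of all 13 libraries. Of the 7, 5 had a negative and 2 a positive difference. Slamf1, also listed, was higher in V within each pair, with all 13 libraries scaled together. It had 21.5, 18.3 and 26.3 CPM in V and 18.4, 4.34 and 13.1 in WT. Over the 18 listed genes in the table the sum was 58.7, 58.8 and 75.6 CPM in V and 197, 224 and 101 in WT. Myb, a factor of progenitors picked after its values were seen, had 13.2, 24.5 and 15.7 CPM in V and 82.96, 147 and 55.4 in WT (-2.35 ± 0.19, adjusted p = 6.33e-05).

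Few B cell genes passed, and those that did went in opposite directions. Bcl11a, a factor of B cell development, had 5.87, 4.14 and 5.97 CPM in V and 28.8, 93.3 and 16.99 in WT (-2.85 ± 0.55, adjusted p = 0.0487). Ms4a1, which encodes CD20, had 109, 203 and 126 CPM in V and 55.9, 96.6 and 90.7 in WT (0.83 ± 0.14, adjusted p = 0.00686). Of 19 tested B cell genes only these 2 passed, and the groups were apart in both. Over the 31 listed genes in the table the groups overlapped. The sum was 1862, 2023 and 2256 CPM in V and 2021, 2462 and 2151 in WT. Without pair 2 Bcl11a passed (adjusted p = 0.0278) and Ms4a1 did not (0.0688), and in the fit of all 13 libraries neither did (0.237 for Bcl11a and 0.0582 for Ms4a1). Pax5, the factor that holds B cell identity, did not pass, with 2.44, 2.76 and 9.75 CPM in V and 48.3, 169.9 and 16.99 in WT (-3.46 ± 1.31, adjusted p = 0.375); it was picked after its values were seen.

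Other large falls were in genes of more than 1 cell type. Cxcl12, the chemokine that holds plasma cells in the marrow and is made by stromal cells, had 2.44, 3.45 and 4.72 CPM in V and 38.1, 45.8 and 18.1 in WT (-3.10 ± 0.37, adjusted p = 0.00156, and 0.0146 without pair 2). The stromal and endothelial list as a whole summed to 93.4, 72.1 and 147 CPM in V and 139, 174 and 99.6 in WT, and its markers Lum, Emcn and Cldn5 were at 0 in all 6 libraries. Rgs1, a regulator of chemokine receptor signalling, had 1.47, 2.42 and 0.629 CPM in V and 12.7, 28.3 and 4.93 in WT (-3.27 ± 0.43). Nlrp3, the inflammasome sensor, had 1.47, 1.73 and 0.943 CPM in V and 6.51, 31.2 and 4.66 in WT (-3.15 ± 0.52). B3gnt5, a glycosyltransferase of lacto-series glycolipids, had 0.489, 2.07 and 0.314 CPM in V and 4.46, 34.9 and 4.11 in WT (-3.81 ± 0.51), and Cnn3, an actin-binding calponin, had 0.489, 0.345 and 0.943 CPM in V and 8.57, 11.3 and 6.58 in WT (-3.72 ± 0.60). Pkhd1l1 (-3.77 ± 0.57), Nxpe2 (-3.26 ± 0.55) and Paqr9 (-3.14 ± 0.52) fell as well. WT replicate 2 was the highest library in these 7 genes after Cxcl12, and none of the 7 passed without pair 2.

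Genes of dividing cells fell. Of 46 mitosis genes 16 fell and 0 rose (median -0.65), and of 47 DNA replication genes 10 fell and 0 rose (median -0.43). Over all genes tested, 3.24% fell. Cenpf, a kinetochore protein, had 35.2, 62.1 and 24.5 CPM in V and 68.6, 118 and 60.8 in WT (-1.06 ± 0.15, adjusted p = 0.00338). The spindle kinesin Kif15 had 13.2, 30.03 and 15.1 CPM in V and 30.2, 72.6 and 35.1 in WT (-1.23 ± 0.18, adjusted p = 0.00361). The centromeric histone Cenpa had 9.29, 19.3 and 6.92 CPM in V and 19.5, 59.2 and 23.02 in WT (-1.50 ± 0.23), and the spindle factor Tpx2 had 16.1, 33.1 and 18.9 CPM in V and 31.9, 76.98 and 40.3 in WT (-1.11 ± 0.18). Replicate 2 was the highest in both groups, so that Cenpf and Tpx2 overlap between groups and fell in every pair.

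Uhrf1, which maintains DNA methylation at replication, had 13.7, 18.3 and 17.3 CPM in V and 34.3, 79.5 and 29.9 in WT (-1.43 ± 0.25, adjusted p = 0.00973). The helicase subunit Mcm3 had 32.3, 60.1 and 38.4 CPM in V and 57.9, 121 and 56.2 in WT (-0.81 ± 0.16), and DNA ligase 1, Lig1, had 29.8, 60.1 and 44.96 CPM in V and 55.5, 128 and 64.95 in WT (-0.84 ± 0.16). Cdk2, the only 1 of 16 D- and E-type cyclins, their partners and inhibitors to pass, fell by 0.78 on the log2 scale (adjusted p = 0.0441). Mki67, the proliferation marker, had 549, 1376 and 663 CPM in V and 907, 1584 and 873 in WT, and its difference of -0.44 ± 0.14 did not pass (adjusted p = 0.1005). Without pair 2, 3 of the 46 mitosis genes and 0 of the 47 replication genes passed, with medians of -0.57 and -0.44, and Kif15 (0.0473) and Cenpf (0.0177) were among the 3. In the fit of all 13 libraries 4 and 2 passed.

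Histone genes, a group formed after the values were seen, moved the same way: of 47 linker and core histone genes tested, 12 fell, 0 rose and 46 had a negative difference (median -0.62). Over all 10510 genes tested, 5135 had a negative difference. Without pair 2, 2 of the 47 histone genes fell, and 4 in the fit of all 13 libraries. H1f1 had 22.97, 90.4 and 32.1 CPM in V and 92.9, 248 and 76.7 in WT (-1.54 ± 0.16, adjusted p = 0.000398). The group summed to 1288, 2241 and 1647 CPM in V and 2117, 4239 and 2211 in WT. The neutrophil and erythroid precursors of the marrow divide, and their part in these falls was not tested. Beside them, Elane, a granule protease of neutrophil precursors, had 32.7, 53.5 and 21.4 CPM in V and 40.5, 157 and 94.6 in WT.

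In the remaining lists few genes passed. In glycolysis Pfkp, the platelet phosphofructokinase, rose (0.62 ± 0.13), while the glucose transporter Slc2a3 (-1.50 ± 0.32) and the lactate exporter Slc16a3 (-1.71 ± 0.35) fell, and the other 17 of 20 did not pass. In the p53 pathway Zmat3 had 48.4, 65.9 and 41.2 CPM in V and 33.6, 24.7 and 23.6 in WT (0.92 ± 0.20), and Pmaip1, the pro-apoptotic NOXA, had 21.5, 21.1 and 29.6 CPM in V and 64.8, 38.5 and 38.6 in WT (-0.92 ± 0.23). Pmaip1 was also the only 1 of 13 BCL2 family genes to pass. Scd2, a fatty acid desaturase, rose (0.69 ± 0.13), the only 1 of 26 genes of cholesterol and fatty acid synthesis. None of these 6 passed without pair 2. Of 32 proteasome genes 0 passed, with Psmd4 at 168, 171 and 178 CPM in V and 166, 175 and 153 in WT, and Psmb1 at 147, 179.5 and 169 CPM in V and 139.5, 137 and 138 in WT.

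Most listed genes of neutrophils, erythroid cells and monocytes were lower in V, most of all against WT replicate 2. Of 59 tested neutrophil genes 34 fell, and of 33 erythroid genes 17. Without pair 2 these were 10 and 11, and in the fit of all 13 libraries 1 and 3. S100a9, an abundant neutrophil protein, had 501, 1023 and 549.9 CPM in V and 874, 2469 and 937 in WT (-0.95 ± 0.14), and Hba-a1, an alpha globin with a near-identical copy, had 0.489, 2.07 and 2.201 CPM in V and 9.599, 51.6 and 10.4 in WT (-3.66 ± 0.47). Of 19 monocyte and macrophage genes 4 fell, among them Cd5l (-2.97 ± 0.66), Lpl (-2.08 ± 0.51) and the iron exporter Slc40a1 (-1.20 ± 0.27). Myeloid genes outside the lists fell too, and 3 picked after their values were seen were Ncf1 (-1.21 ± 0.15), Hk3 (-1.67 ± 0.26) and Fgr (-0.99 ± 0.19). The part of these cells in the other falls was not tested. Of 6 genes of basophils, eosinophils and mast cells, Kit alone passed. For T and NK cells 0 of 15 passed. Prf1 had 14.7, 18.3 and 35.5 CPM in V and 9.26, 14.5 and 51.3 in WT. Cd4 had 12.2, 15.5 and 17.9 CPM in V and 14.4, 22.5 and 42.8 in WT. The 30 T and NK genes in the table summed to 157, 134 and 194 CPM in V and 184, 258 and 165 in WT, so that V was higher in pair 3. For megakaryocytes and platelets 0 of 3 passed, with Plek at -0.48 ± 0.14 and Itgb3 at -0.11 ± 0.16.

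Slpi went against its list. This secreted protease inhibitor was placed among the neutrophil genes, yet it had 1880.3, 9796 and 2100.3 CPM in V and 689, 507 and 691 in WT, so that V lay above WT in every pair and V replicate 2 far above the rest. It did not pass with all pairs (log2 difference 2.38 ± 0.88, adjusted p = 0.364), and it passed without pair 2 (1.52, adjusted p = 0.000299). With Slpi, the 77 neutrophil genes in the table summed to 4586, 15239.8 and 5177 CPM in V and 5669.7, 14861 and 6131 in WT. Without it, which was decided after its values were seen, they summed to 2705, 5255 and 3011 CPM in V and 4974, 14356 and 5411 in WT.

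**Figure D4:**
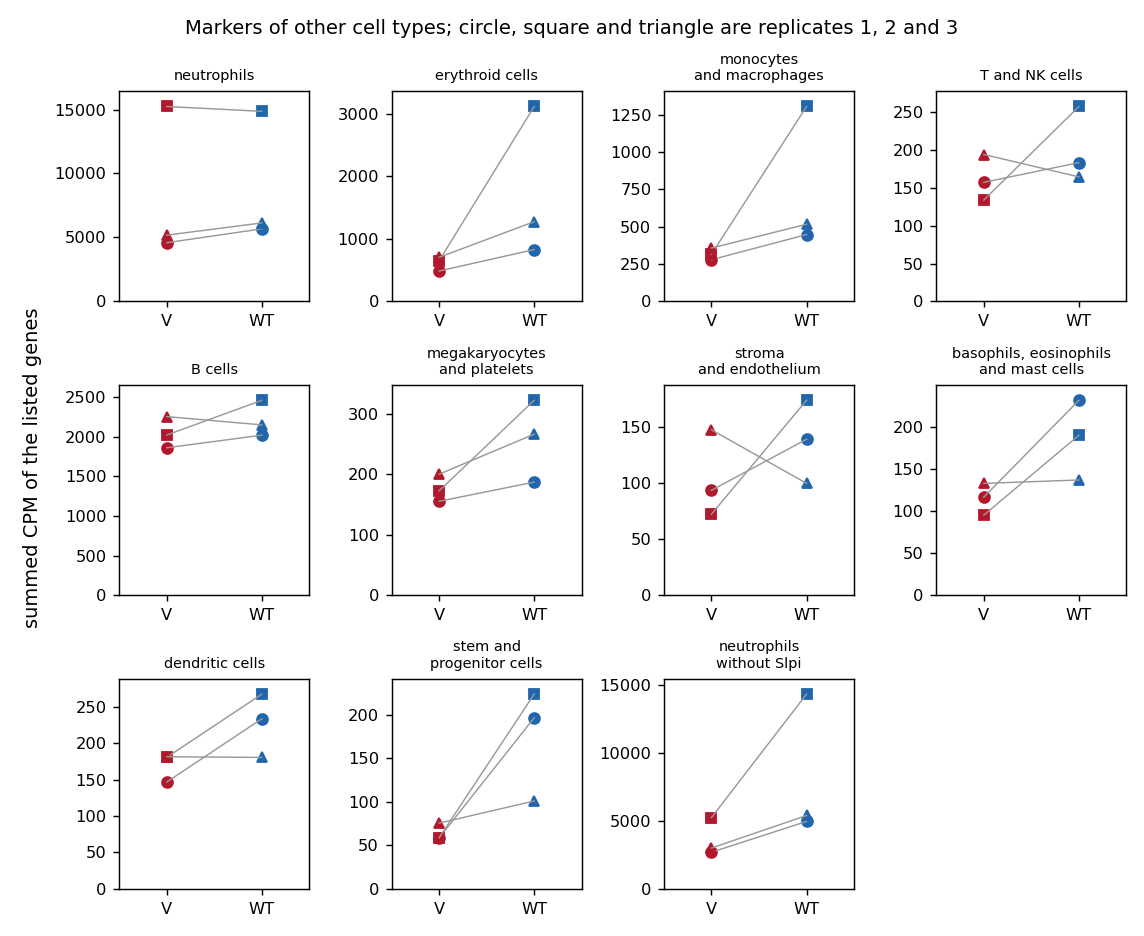
Each panel gives the summed CPM of the listed markers of a cell type, with V libraries in red at the left, WT libraries in blue at the right and lines between libraries of the same number. WT replicate 2 (square) stands far above all others for erythroid cells (3121 CPM) and monocytes (1306 CPM), and V replicate 2 reaches it for neutrophils only while Slpi is counted.

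The levels of these genes in the transplanted tumours did not follow V and WT in a single way. In all 13 libraries scaled together, Myc had 305, 425 and 364 CPM in V, 903 and 698 for the recipients of VQ D1, 1667 for D4, 1361 and 1670.1 for D5, 8008 and 8160.2 for tVk12653, and 50.6, 70.9 and 35.1 in WT. Csn3 had 67.5, 27.4 and 18.5 CPM in V, 43.4 and 17.6 for D1, 0.851 for D4, 2.14 and 2.56 for D5, 360.03 and 359 for tVk12653, and 2.42, 1.45 and 2.57 in WT. Csn3 thus stood no higher than WT in D4 and D5, and above V in tVk12653. Cp had 269.97, 276 and 80.4 CPM in V, 2085 and 3288 for D1, 150.1 for D4, 206 and 128 for D5, 541 and 382 for tVk12653, and 34.6, 20.98 and 16.8 in WT, so that every tumour library stood above WT. Ly6k had 72.4, 22.2 and 77.9 CPM in V, 797 for D4, at most 1.33 in the other tumour libraries, and 15.6, 15.6 and 14.3 in WT.

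Zcwpw1 and Fmn1, both higher in V than in WT, were at most 2.403 and 3.01 CPM in the tumour libraries, below every WT library. Nr4a1 had 4.89, 3.17 and 0.973 CPM in V, 0.994 to 5.13 in 6 tumour libraries, 34.96 in tVk12653 replicate 2, and 67.9, 97.6 and 11.7 in WT. Egr3 was at most 0.568 CPM in the tumours, and Cd69 at most 5.39. Cenpf, by contrast, had 35.2, 63.3 and 25.3 CPM in V, 92.95 to 429.5 in the 7 tumour libraries, all above V, and 69.3, 118 and 63.4 in WT. These levels carry no test, since each tumour comparison would share the V or WT libraries.

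**Figure D5:**
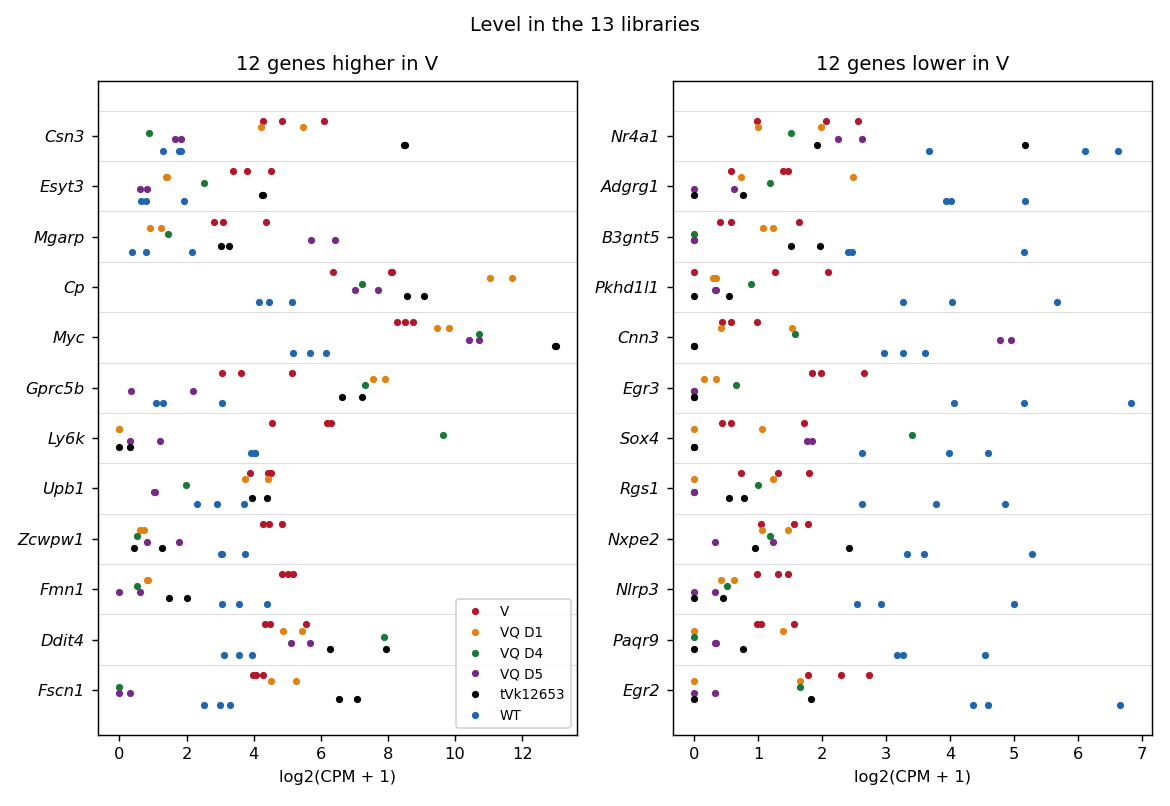
The 12 genes with the largest rises (left) and the 12 with the largest falls (right) in V, with the level of each library on the horizontal axis as log2(CPM + 1) and groups in colour, V at the top of each row and WT at the bottom. V points lie right of WT points on the left panel and left of them on the right panel because the rule for naming required no overlap. The tumour groups scatter between genes, as for Csn3 with tVk12653 at 360.03 and 359 CPM and D4 at 0.851.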

How the data were processed

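Total RNA of the sorted cells (RNeasy Micro kit) was made into stranded libraries with a SMARTer Pico Input kit, per the labels. The authors deposited raw counts for each gene symbol and library, with no normalization. Alignment with STAR 2.6.1d to GRCm38.p6 is named in the submitters' processing notes; the counting tool, its strand setting and its rule for multiply aligned reads are not stated there. Of 22997 symbols 22147 matched RefSeq of GRCm38.p6, which gave chromosomes, positions and promoter windows.

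Counts of the 3 V and 3 WT libraries were filtered (filterByExpr, minimum count 10, minimum total 15), scaled by TMM, and tested with edgeR 4.0.16 (quasi-likelihood, robust, two-sided) under R 4.3.3. P-values were adjusted over the 10510 genes by Benjamini-Hochberg, with a threshold of 0.05. The fit was planned without a block, and the same fit with the replicate number as a block was planned as an alternative. Deviations from the group mean had r of 0.263, 0.242 and 0.190 between V and WT libraries of the same number (1, 2 and 3), and -0.199 to -0.0675 between different numbers. Deviations cancel within a group of 3, so positive values at the same number force negative ones elsewhere. The negative values are therefore no separate evidence of pairing. All 3 values at the same number exceeded 0.1, so the numbers were treated as pairs. These 3 values are not independent of each other, and they come from the same libraries that were then tested. No label says that a number marks a shared day or litter. Nothing says that libraries of a group are separate animals, so p-values refer to libraries. Without the block they measure the spread between libraries of a group. With the block they refer to how far the V to WT difference varies between pairs. In both fits edgeR draws each gene's spread toward that of other genes. A p-value, and the standard error after ±, thus do not rest on that gene's own spread alone. The spread between libraries of a group exceeded counting error (chi-square per degree of freedom 8.20 to 14.4), and these values do not describe the spread between pairs. Intervals of counts and floors cover counting error only.

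Named genes were the 12 largest changes per direction in the blocked fit, since the fit without a block gave fewer than 12. They had a mean of at least 8 CPM in the higher group, no overlap, and were not predicted, ribosomal protein, histone, mitochondrial or small RNA genes. Up to 4 genes per list with the smallest adjusted p (or its 2 most abundant, where none passed) and a fixed set of plasma cell, sex-linked and marker genes were named too. A few genes that this rule selects are not reported here. The members and the 36 gene lists were chosen with earlier results of these data known. Alternatives were relative log expression factors, other count filters, DESeq2 1.42.0, all 13 libraries, genes of X, Y, neutrophils and erythroid cells removed, and each library or pair left out. Those that join the block to another scaling, filter or tool were added after seeing the data. The fits were checked on simulated counts with 200 changed genes. Those counts held no outlying library, so the check does not show the rate of false calls in these data.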

Additional observations from a re-analysis of the deposited data

How the results depend on the processing

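Counts of calls moved with nearly every choice, and are given as genes higher and lower over all tested, then over those reported. The replicate block gave 138 and 341, then 133 and 277, against 1 and 1, then 1 and 0 without it. Without a block, no low count filter gave 91 and 132, then 88 and 118; DESeq2 gave 90 and 201, then 87 and 161; and all 13 libraries gave 17 and 7, then 17 and 3. With X, Y, neutrophil and erythroid genes removed before the fit, 0 reported genes were called higher without the block, and 125 higher and 276 lower with it. All 13 libraries with the block gave 43 and 48, then 43 and 38. The block with relative log expression factors gave 127 and 341, then 123 and 277; with no filter 348 and 747, then 331 and 644; with a minimum count of 30, 117 and 260, then 113 and 216; and with DESeq2 98 and 262, then 93 and 203. Without each single library the counts ranged from 0 to 7 higher and 0 to 23 lower, and over the reported genes from 0 to 6 and 0 to 21. With the block and pair 1, 2 or 3 left out they were 211, 38 and 125 higher and 480, 75 and 478 lower, and over the reported genes 201, 37 and 119 higher and 405, 49 and 402 lower. The cause of these shifts was not tested. The Myc difference ranged from 2.57 to 3.10 over the libraries and pairs left out; its adjusted p was 0.0532 without V replicate 1, and 0.0505 (2.80) with X, Y, neutrophil and erythroid genes removed.

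Genes near no difference changed sign. Prf1, negative without a block, was at 0.035 with the replicate block, 0.085 with the block in all 13 libraries, 0.030 with the block and those genes removed, and 0.026, 0.037, 0.028 and 0.092 with the block and relative log expression factors, no filter, the stricter filter and DESeq2; over the single libraries left out it ranged from -0.61 to 0.96, and it was 0.48 with the block and pair 3 left out. Jchain turned to 0.0035 with the block and no filter, ranged from -0.23 to 0.30 over the libraries left out, and was 0.034 and 0.10 with the block and pair 1 or 3 left out. Over the libraries left out Itgb3 ranged from -0.29 to 0.0018, Prdm1 from -0.45 to 0.013 and Xbp1 from -0.075 to 0.28. With the block and a pair left out, Itgb3 was 0.041 and Psmd4 -0.014 without pair 3, and Xbp1 -0.012 without pair 2. Depths of 2096815 to 3640249 reads limit genes under about 1 CPM.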
